A study of Mus musculus with 45 samples.

Results

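An early-passage comparison of mouse induced pluripotent stem cells (iPSCs) took 6 of the 45 arrays in the whole study. The first side was 3 clones made from tail tip fibroblasts (TTF) of mouse 2 at passage 4, and the other was 3 clones made from granulocytes (Gra) of the same mouse at the same passage. Members were chosen by their labels for origin, passage and mouse, and all genes were tested. The choice of this comparison and of the gene lists was made with earlier results of these data known. Per the labels, every line came from a secondary reprogramming system and was grown with serum and leukaemia inhibitory factor (LIF) on irradiated embryonic fibroblasts. The cells were trypsinised and preplated to take off these feeders before total RNA was labelled and hybridised. The other groups used below are B cell and T cell lines of mouse 2 at passage 4, Gra lines of mouse 1 at passage 4, and TTF and Gra lines of mouse 2 at passages 10 and 16, with 3 clones each. The secondary system's transgenes, the animals' strain and their age are not given in the sources used here. All clones on both sides came from 1 animal. Errors and p-values rest on the spread among clones within a group, pooled over all 33 arrays of passages 4, 6 and 16. Some of those groups came from mouse 1. The errors are therefore not the spread of these 6 clones alone, and they say nothing of how mice vary.

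Reprogramming turns a differentiated cell into a cell that resembles an embryonic stem cell, held in that state by a core of transcription factors that includes Pou5f1, Nanog and Sox2. Mouse cells in serum and LIF sit between self-renewal and commitment: LIF acts through STAT3 to maintain them, and fibroblast growth factor (FGF) acts through ERK to prime them for differentiation. Fibroblasts are mesenchymal cells that make collagen and other matrix, and granulocytes are short-lived blood cells filled with antimicrobial proteases. The comparison asks whether lines from these unlike cells differ soon after reprogramming.

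The values are log2 signals after robust multi-array averaging (RMA), and each gene is represented by 1 probe set. Differences are TTF minus Gra on the log2 scale with the standard error (SE) of the model, n = 3 clones a side, and p-values are two-sided limma values with Benjamini-Hochberg adjustment over 11807 genes. A gene was called at an adjusted p under 0.05. At passage 4, 2909 of 11807 genes were called (24.6%), of which 1843 were higher in TTF lines (15.6%) and 1066 lower (9.03%), and 4196 (35.5%) had an unadjusted p under 0.05. For 5066 genes (42.9%) the 3 TTF and 3 Gra values did not overlap, and 2756 of these were called (23.3% of all genes). The called differences had a median size of 0.87, with 749 genes higher and 356 lower by at least 1 log2 unit, and the median difference over all genes was 0.08. Leaving out 1 clone in turn gave between 1995 and 2673 called genes. The TTF clones were less alike than the Gra clones: Pearson's r between arrays over all genes was 0.977 to 0.987 among TTF clones, 0.994 to 0.997 among Gra clones, and 0.953 to 0.976 between them. The median SD of a gene was 0.238 in TTF lines and 0.135 in Gra lines, and it was larger in TTF lines for 8912 genes. TTF clone 2 had the lowest mean correlation with its own group (0.978). Dates and batches are not given in the sources used here, and a batch that matched origin cannot be told apart from origin.

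The labels call all 6 lines pluripotent, and Pou5f1, Nanog and Sox2 lay between 10.76 and 12.28 on every array, in a table whose values run from 2.261 to 14.081. Zfp42 (0.20, adjusted p = 0.67) and Dppa5a (0.05, adjusted p = 0.82), markers of pluripotent cells, were not called different. Nanog, a homeodomain factor of the pluripotent core, had values of 12.01, 12.27 and 12.24 in TTF clones, against 12.21, 12.28 and 11.98 in Gra clones. The ranges overlapped, with a difference of 0.02 (SE 0.26, adjusted p = 0.97). Klf4, a Krüppel-like factor of the reprogramming set, also overlapped, with a difference of 0.08 (SE 0.12, adjusted p = 0.71). Pou5f1, the POU factor also called Oct4, was 11.03, 10.79 and 11.16 in TTF clones, against 11.40, 11.27 and 11.22 in Gra clones. Its groups did not overlap, and its difference of -0.31 (SE 0.13, adjusted p = 0.084) passed the threshold only without TTF clone 3 (-0.39, adjusted p = 0.048). Sox2, the partner of Pou5f1, was lower in TTF lines by a small amount (-0.47, SE 0.13, adjusted p = 0.008), a call lost when only the 6 arrays were fitted (adjusted p = 0.054). Myc, the growth-promoting factor of the reprogramming set, was called lower (-1.17, SE 0.42, adjusted p = 0.04), but this call was lost without any 1 of the 6 clones (adjusted p 0.063 to 0.13) and after quantile normalization (adjusted p = 0.053).

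Of 26 measured pluripotency factors, 8 were called lower in TTF lines, 1 higher and 17 in neither direction, with a median difference of -0.33. Over all genes, 9.03% were called lower and 15.6% higher. Lin28a encodes an RNA-binding protein that blocks maturation of let-7 microRNAs. Its values were 8.86, 6.80 and 7.64 in TTF clones, against 10.63, 10.67 and 10.24 in Gra clones. Every TTF clone lay below every Gra clone, by a mean of -2.75 (SE 0.47, adjusted p = 0.0001, 6.7-fold). Gbx2, a homeobox gene induced by LIF, was 6.45, 5.68 and 5.15 in TTF clones, against 7.81, 8.20 and 7.97 in Gra clones, again without overlap (-2.24, SE 0.51, adjusted p = 0.0017). Gdf3, a TGF-beta family ligand of pluripotent cells, differed by -1.56 (SE 0.29, adjusted p = 0.00025). Nr0b1, an orphan nuclear receptor also called Dax1, differed by -1.44 (SE 0.32, adjusted p = 0.0014). The single factor called higher was Klf5 (1.12, SE 0.39, adjusted p = 0.035), and none was called higher without TTF clone 2, Gra clone 1 or Gra clone 3.

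The genes with the largest excess in TTF lines had varied roles. Matn1, which encodes a cartilage matrix protein, was 9.01, 8.55 and 8.10 in TTF clones, against 5.02, 5.56 and 5.55 in Gra clones. The gap between the groups exceeded the spread within either, and the mean difference was 3.18 (SE 0.45, adjusted p = 8.8e-06, 9.05-fold). Bcl6, a zinc finger repressor known from germinal centre B cells, was 8.75, 9.23 and 9.71 in TTF clones, against 6.15, 5.70 and 6.72 in Gra clones (3.04, SE 0.33, adjusted p = 2.7e-07). Cacng6, a calcium channel gamma subunit, had the smallest SE of these genes (3.02, SE 0.26, adjusted p = 1.3e-08). Irf2, an interferon regulatory factor, was between 6.48 and 6.70 in TTF clones, against 3.40 to 3.79 in Gra clones (2.92, SE 0.31, adjusted p = 2.2e-07). Inca1, which encodes an inhibitor of cyclin-dependent kinase, Tmem191c, which encodes a transmembrane protein, and Ablim1, an actin-binding LIM protein gene, were higher by 2.95, 2.83 and 2.70. Uba1y, a Y-linked ubiquitin-activating enzyme, separated the groups with wide scatter: 7.48, 4.85 and 6.39 in TTF clones, against 3.19, 3.21 and 3.38 in Gra clones (2.98, SE 0.51, adjusted p = 0.00011). With the mean of all probe sets in place of the brightest, the difference was 1.68 for Bcl6 and 1.58 for Cacng6, both still called.

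**Figure D1:**
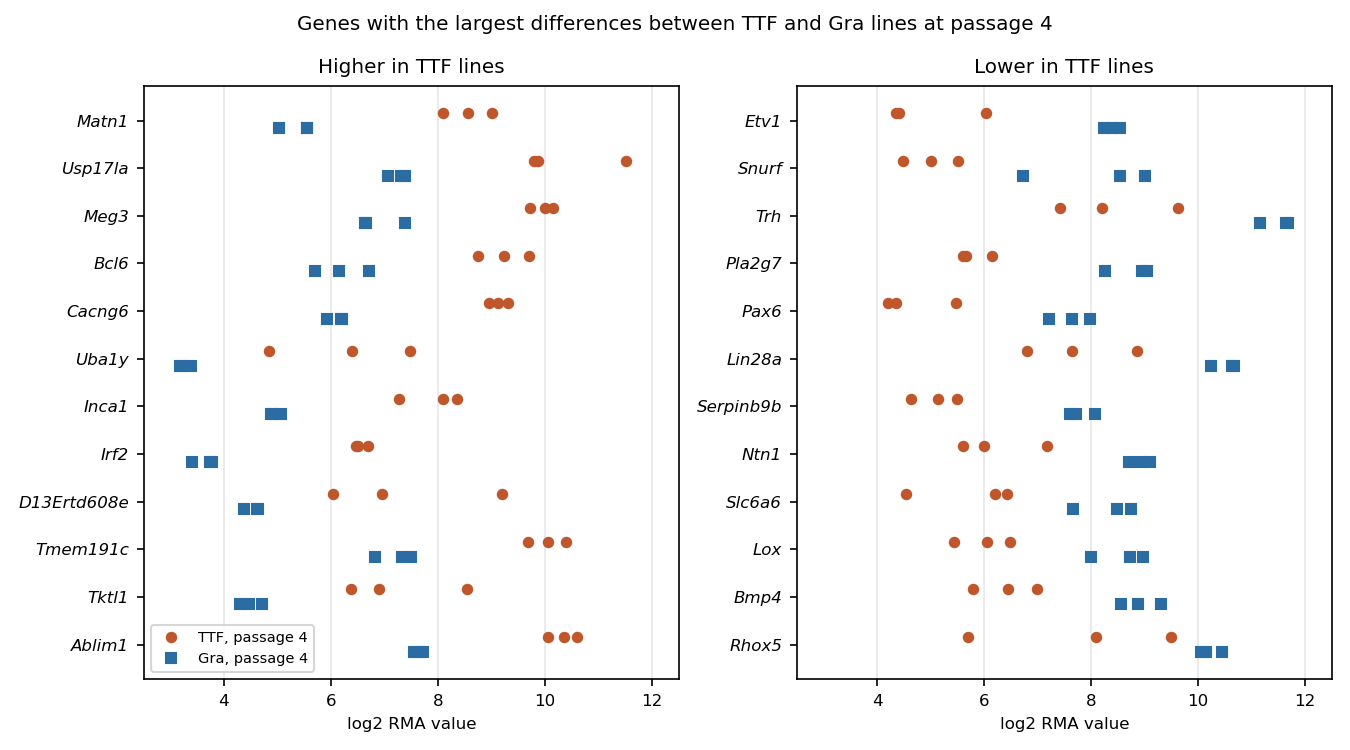
Values (log2 RMA) of the 3 TTF clones (orange circles) and 3 Gra clones (blue squares) of mouse 2 at passage 4, for the 12 called genes with the largest difference in each direction and no overlap; each mark is 1 clone. The left panel holds genes higher in TTF lines, led by Matn1 (3.18), and the right panel those lower, led by Etv1 (-3.45); Uba1y, D13Ertd608e and Rhox5 show the wide scatter of the TTF clones.

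The genes with the largest deficit in TTF lines also had varied roles. Etv1, an ETS transcription factor induced by FGF-ERK signalling, was 6.04, 4.36 and 4.41 in TTF clones, against 8.39, 8.54 and 8.23 in Gra clones. All TTF clones were lower, by a mean of -3.45 (SE 0.62, adjusted p = 0.00018, 10.9-fold). Trh, the gene of thyrotropin-releasing hormone, differed by -3.09 (SE 0.50, adjusted p = 4.9e-05). Pla2g7, a secreted phospholipase that inactivates platelet-activating factor, was 5.60, 5.67 and 6.15 in TTF clones, against 9.04, 8.95 and 8.26 in Gra clones. Its groups lay over 2 log2 units apart and it had the smallest adjusted p of the named genes (-2.94, SE 0.23, adjusted p = 2.6e-09). Bmp4, a ligand that blocks neural commitment in mouse stem cells, differed by -2.50 (SE 0.51, adjusted p = 0.00059). Serpinb9b, a serine protease inhibitor gene, differed by -2.71 (SE 0.40). Ntn1, an axon guidance cue, and Slc6a6, the taurine transporter, differed by -2.65 and -2.57 by their brightest probe set. Their probe sets disagreed in direction, and the mean of probe sets gave -1.23 for Ntn1 and -0.86 for Slc6a6, still called.

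Of 14 measured FGF-ERK ligands, receptors, targets and feedback inhibitors, 6 were called lower in TTF lines, 1 higher and 7 in neither direction (median -0.30). The shares over all genes were 9.03% lower and 15.6% higher. Beside Etv1, the receptor gene Fgfr2 was 6.48, 5.28 and 5.21 in TTF clones, against 6.97, 7.59 and 7.72 in Gra clones (-1.77, SE 0.50, adjusted p = 0.0096), or -1.01 with the mean of probe sets. Ccnd1, the D-type cyclin that links growth signals to the cell cycle, differed by -1.24 (SE 0.28, adjusted p = 0.0018). Spry2, a feedback inhibitor of receptor tyrosine kinases, differed by -0.95 (SE 0.24, adjusted p = 0.0044). The ligand Fgf4 was close in both groups (0.13, SE 0.17, adjusted p = 0.64). The member called higher was Phlda1 (0.90, SE 0.30, adjusted p = 0.028), and none was called higher without TTF clone 2, TTF clone 3, Gra clone 1 or Gra clone 3.

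Of 17 measured early neural genes, 5 were called lower in TTF lines and 1 higher (median -0.06), against 9.03% and 15.6% of all genes. The other 11 were called in neither direction. Pax6, a paired-box regulator of eye and forebrain, was 5.47, 4.36 and 4.20 in TTF clones, against 7.21, 7.64 and 7.98 in Gra clones (-2.93, SE 0.46, adjusted p = 3.1e-05). Of its 5 probe sets, 4 pointed the same way, and their mean gave -0.81, still called. Ncam1, a neural adhesion molecule, was between 6.66 and 7.17 in TTF clones, against 9.16 to 9.25 in Gra clones (-2.30, SE 0.26, adjusted p = 5.3e-07), or -1.01 with the mean of its probe sets, of which 4 of 6 shared the direction. Zic2, a zinc finger factor of the primed and neural state, was 6.11, 4.56 and 3.23 in TTF clones, against 6.98, 7.07 and 6.43 in Gra clones (-2.19, SE 0.53, adjusted p = 0.0029). Tubb3, a neuronal tubulin, differed by -1.51 (SE 0.34, adjusted p = 0.0017). Neurod1, a proneural factor, was the member called higher (1.49, SE 0.49, adjusted p = 0.027), and none was called higher without TTF clone 1, TTF clone 3, Gra clone 1 or Gra clone 2.

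Genes of glycolysis and the hypoxia response had the most members called lower in TTF lines of the lists described here. Glycolysis converts glucose to pyruvate and lactate, and many of its enzymes are induced by hypoxia-inducible factor (HIF), which binds a short core in promoters and enhancers. Of 26 measured members, 15 were called lower and 2 higher (median -0.68), against 9.03% and 15.6% of all genes. Aldoc, an aldolase of the middle of the pathway, was 6.93, 5.72 and 7.42 in TTF clones, against 9.40, 9.24 and 8.64 in Gra clones. The highest TTF clone was more than 1 log2 unit below the lowest Gra clone (-2.41, SE 0.34, adjusted p = 1e-05, 5.3-fold). The mean of its probe sets gave -1.26, still called. Hk2, the hexokinase that commits glucose to the pathway, was 10.49, 9.40 and 9.48 in TTF clones, against 11.84, 11.67 and 11.61 in Gra clones (-1.92, SE 0.23, adjusted p = 1.2e-06). Egln3, a prolyl hydroxylase that marks HIF for destruction and is itself a HIF target, differed by -1.64 (SE 0.25, adjusted p = 2.9e-05). Ndrg1, a stress gene induced by hypoxia, differed by -1.47 (SE 0.22, adjusted p = 2.2e-05). The members called higher were Hk1, a second hexokinase (0.77, SE 0.21, adjusted p = 0.0065), and Ddit4, an inhibitor of mTOR signalling (0.62, SE 0.17, adjusted p = 0.0068). Without TTF clone 2 only 1 member was called higher, and 4 were without Gra clone 3 of passage 16, which shares the estimate of spread.

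Because 15 of the 26 members were called lower, the promoters of the list were searched for the HIF core, spelled ACGTG, on both strands. The windows are RefSeq promoters of build GRCm38.p6, each 300 bases long and spanning a transcript start. The core was in a window of 18 of the 23 measured members that had one, against 26.8% of 9430 tested genes with a window. Of 15 members called in either direction that had a window, 12 held it, among them Hk1 and Ddit4, which were called higher. The list was chosen to hold hypoxia targets, and uncalled members carried the core too. Its share therefore says nothing of the difference between TTF and Gra lines. The same letters lie inside the E-box CACGTG, so a match is not specific to HIF and is no evidence of binding. The windows of the 2 members with the largest differences follow, with the core or its complement in capitals. That of Aldoc lies at chr11:78322823-78323122 on the plus strand, and that of Hk2 at chr6:82774405-82774704 on the minus strand.
Aldoc: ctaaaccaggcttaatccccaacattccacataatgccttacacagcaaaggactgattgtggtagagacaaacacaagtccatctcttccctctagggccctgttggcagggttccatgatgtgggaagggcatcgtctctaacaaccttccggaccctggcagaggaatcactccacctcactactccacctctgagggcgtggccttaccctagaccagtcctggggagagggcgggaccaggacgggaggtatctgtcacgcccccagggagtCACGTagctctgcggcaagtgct
Hk2: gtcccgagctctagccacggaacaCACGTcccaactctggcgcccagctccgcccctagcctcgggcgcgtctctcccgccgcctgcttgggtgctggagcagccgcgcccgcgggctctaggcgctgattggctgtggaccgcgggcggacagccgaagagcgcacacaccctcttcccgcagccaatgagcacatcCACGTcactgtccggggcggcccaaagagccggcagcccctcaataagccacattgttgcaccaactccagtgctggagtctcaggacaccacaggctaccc
The Aldoc window holds 1 match and the Hk2 window holds 2.

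The cholesterol synthesis pathway builds sterols from acetyl-CoA through isoprenoids, and its enzymes are induced together by SREBP2, which works with the factor NF-Y at CCAAT boxes. Of 16 measured members, 6 were called lower in TTF lines and 0 higher (median -0.65), against 9.03% and 15.6% of all genes. Fdps, which makes farnesyl diphosphate, was 7.39, 5.86 and 7.24 in TTF clones, against 9.72, 9.31 and 8.80 in Gra clones (-2.45, SE 0.47, adjusted p = 0.00035). Sc5d, a late desaturase, was 6.15, 5.94 and 6.65 in TTF clones, against 7.94, 7.53 and 7.40 in Gra clones (-1.38, SE 0.36, adjusted p = 0.0054). Its probe sets disagreed in direction, and their mean was -0.60, still called. Cyp51, the lanosterol demethylase, was 8.30, 8.27 and 9.15 in TTF clones, against 10.05, 9.75 and 9.81 in Gra clones (-1.30, SE 0.26, adjusted p = 0.00067). Idi1, an isomerase of the isoprenoid steps, differed by -1.21 (SE 0.27, adjusted p = 0.0015), or -0.77 without TTF clone 2, the lowest at 8.75.

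The CCAAT box, read as ATTGG or its complement, was in the promoter window of 13 of the 13 measured cholesterol members that had one, against 42.7% of 9430 tested genes. The box is known for this pathway and uncalled members held it too, so its share says nothing of the difference between TTF and Gra lines. The sterol regulatory core TCACCCCAC was in 0 of the 13, against 0.71% of tested genes, which says only that these exact letters are not in those windows. The windows of Sc5d, at chr9:42264251-42264550 on the minus strand, and Cyp51, at chr5:4104648-4104947 on the minus strand, are shown with the box in capitals.
Sc5d: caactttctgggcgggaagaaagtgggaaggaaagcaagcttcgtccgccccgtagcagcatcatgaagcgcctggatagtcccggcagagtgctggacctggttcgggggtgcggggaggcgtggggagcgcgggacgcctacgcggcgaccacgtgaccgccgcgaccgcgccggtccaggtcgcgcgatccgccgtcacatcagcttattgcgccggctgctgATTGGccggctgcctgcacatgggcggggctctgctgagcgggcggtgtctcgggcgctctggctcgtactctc
Cyp51: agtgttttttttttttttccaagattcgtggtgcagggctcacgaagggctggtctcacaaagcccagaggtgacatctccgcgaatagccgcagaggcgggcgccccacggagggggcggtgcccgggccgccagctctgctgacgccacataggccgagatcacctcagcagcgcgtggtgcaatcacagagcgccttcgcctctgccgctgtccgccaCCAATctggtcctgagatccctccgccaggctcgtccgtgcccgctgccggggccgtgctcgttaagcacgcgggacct
Each window holds 1 match.

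Immediate early genes are transcribed within minutes of growth factor or stress signals. Of 20 measured, 11 were called higher in TTF lines and 1 lower (median 0.73), against 15.6% and 9.03% of all genes. Egr2, a zinc finger factor, was 8.91, 7.64 and 7.65 in TTF clones, against 5.86, 5.74 and 6.17 in Gra clones, with no overlap (2.14, SE 0.27, adjusted p = 1.6e-06, 4.42-fold). Jun, a subunit of the AP-1 factor, was 9.24, 8.82 and 8.83 in TTF clones, against 7.52, 7.09 and 7.32 in Gra clones (1.65, SE 0.30, adjusted p = 0.00018). Atf3, a stress-induced factor of the ATF family, differed by 1.72 (SE 0.28, adjusted p = 5e-05). The member called lower was Nr4a1, an orphan nuclear receptor, just inside the threshold (-0.57, SE 0.21, adjusted p = 0.049), and none was called lower without TTF clone 2, TTF clone 3, Gra clone 1 or Gra clone 2.

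Btg2 stood in this list and in the list of p53 targets. It encodes an antiproliferative protein and was 9.79, 9.15 and 9.93 in TTF clones, against 7.77, 7.67 and 7.66 in Gra clones (1.92, SE 0.26, adjusted p = 5e-06). Its RefSeq promoter window, at chr1:134079106-134079405 on the minus strand, holds 1 cAMP response element, spelled TGACGTCA and shown in capitals.
Btg2: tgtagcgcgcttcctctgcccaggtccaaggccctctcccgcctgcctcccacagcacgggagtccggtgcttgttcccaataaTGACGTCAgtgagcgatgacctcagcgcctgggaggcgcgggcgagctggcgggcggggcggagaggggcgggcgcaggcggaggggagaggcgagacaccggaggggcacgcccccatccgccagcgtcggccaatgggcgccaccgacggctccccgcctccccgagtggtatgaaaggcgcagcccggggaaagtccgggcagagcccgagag
This element was in 3 of 15 immediate early members with a window, against 2.96% of tested genes. Of 10 called members with a window, 2 held it, so an uncalled member held it too. The Btg2 window is shown because it holds the element. Its share therefore says nothing of the difference between TTF and Gra lines, and a match is no evidence of binding. The AP-1 site TGACTCA (5.76% of tested genes) and 1 spelling of the serum response CArG box (0.0318%) were in 0 of the 15.

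Targets of p53, the transcription factor of the DNA damage response, were called higher in TTF lines in 12 of 21 measured members. They were called lower in 0 (median 0.69), against 15.6% of all genes higher and 9.03% lower. Fas, a death receptor, was 7.08, 5.44 and 7.62 in TTF clones, against 4.54, 4.56 and 4.62 in Gra clones. The TTF clones were scattered, yet each lay above all Gra clones (2.14, SE 0.34, adjusted p = 3.7e-05). Polk, a translesion DNA polymerase, differed by 1.66 (SE 0.25, adjusted p = 2.4e-05). Phlda3, an inhibitor of Akt, was tight in both groups: 10.55, 10.38 and 10.65 in TTF clones, against 8.90, 8.87 and 8.89 in Gra clones (1.64, SE 0.25, adjusted p = 2e-05). Without TTF clone 1, or without Gra clone 3 of passage 16, 1 member was called lower.

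Germline genes, like all genes, were called higher more than lower. Of 21 measured, 8 were called higher in TTF lines and 1 lower (median 0.50), against 15.6% and 9.03% of all genes. Tktl1, a transketolase-like gene, was 6.37, 8.54 and 6.89 in TTF clones, against 4.30, 4.47 and 4.70 in Gra clones (2.77, SE 0.39, adjusted p = 8.3e-06). Mov10l1, a helicase of the piRNA pathway, was tight, at 9.69, 10.16 and 9.77 in TTF clones, against 7.54, 7.37 and 7.50 in Gra clones (2.41, SE 0.28, adjusted p = 8.4e-07). Tex101, a germ cell surface protein, differed by 2.09 (SE 0.26, adjusted p = 2.1e-06). Rhox5, an X-linked homeobox gene, went the other way: 9.49, 5.70 and 8.09 in TTF clones, against 10.06, 10.45 and 10.14 in Gra clones (-2.46, SE 0.48, adjusted p = 0.00044). The difference was -1.43 without TTF clone 2, and it was not called when only the 6 arrays were fitted (adjusted p = 0.063). Without TTF clone 1, 2 members were called lower, and without dim genes 5 were called higher.

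Transcripts of the 2-cell-like state, a rare state of embryonic stem cells that resembles the early embryo, were called higher in 6 of 10 measured. Only 1 was called lower (median 1.05), against 15.6% of all genes higher and 9.03% lower. Many of these transcripts belong to families of near-identical copies, which probes of 1 copy may also read. Usp17la, a deubiquitinase of such a family, was 9.80, 11.51 and 9.86 in TTF clones, against 7.31, 7.07 and 7.38 in Gra clones (3.14, SE 0.43, adjusted p = 6.9e-06). Tcstv1 was 5.47, 7.10 and 5.13 in TTF clones, against 3.92, 3.75 and 3.66 in Gra clones (2.13, SE 0.46, adjusted p = 0.0011). TTF clone 2 was the highest of its group in these genes, and it was in D13Ertd608e too, an unnamed transcript with 6.96, 9.19 and 6.03 in TTF clones, against 4.62, 4.38 and 4.64 in Gra clones (2.85, SE 0.61, adjusted p = 0.001). Spz1, a zipper factor gene of testis, was higher by 2.05 (SE 0.40), or 1.32 without that clone, and Zfp352, a zinc finger gene of the early embryo, by 1.45 (SE 0.42, adjusted p = 0.012), or 0.91 without it, a call then lost (adjusted p = 0.14). Eif1a, a translation factor, was the member called lower (-0.70, SE 0.19, adjusted p = 0.0087), and none was without TTF clone 2. Without dim genes, 3 members were called higher.

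Imprinted genes, expressed from 1 parental allele, gave large differences at a few loci. Meg3, a maternally expressed long RNA of the Dlk1-Dio3 cluster that is known to be silenced in some mouse iPSC lines, was 9.72, 10.15 and 9.99 in TTF clones, against 6.63, 7.38 and 6.66 in Gra clones. No clone of either group lay between, and the difference was 3.07 (SE 0.49, adjusted p = 4.5e-05, 8.39-fold), or 1.67 with the mean of its 4 probe sets, all in 1 direction. Rian, a second RNA of the cluster, was 8.46, 7.83 and 9.22 in TTF clones, against 7.83, 7.38 and 6.11 in Gra clones (1.40, SE 0.65, adjusted p = 0.12). Snurf, which shares a transcript with the paternally expressed Snrpn, was 5.01, 4.49 and 5.51 in TTF clones, against 9.02, 8.55 and 6.73 in Gra clones (-3.09, SE 0.56, adjusted p = 0.00017). That value comes from 1 probe set, and Snrpn itself differed by less (-0.92, SE 0.16, adjusted p = 0.00013). Of 19 measured imprinted genes outside the Dlk1-Dio3 cluster, 2 were called higher and 4 lower (median 0.12). Over all genes 15.6% were called higher and 9.03% lower, so the higher count is not above the background. Grb10, a growth inhibitor, was lower (-1.85, SE 0.37, adjusted p = 0.00055), or -0.92 with the mean of probe sets, still called. Slc22a18, a transporter gene, was higher (1.24, SE 0.30, adjusted p = 0.003), or 0.67 with the mean of probe sets, still called. Impact, a regulator of translation, was called lower (-1.06, adjusted p = 0.0054), but not without TTF clone 2 (-0.61, adjusted p = 0.083) or with only the 6 arrays (adjusted p = 0.064). Sgce, a sarcoglycan, was called higher (1.30, adjusted p = 0.0058) with overlapping groups, at 8.06, 6.13 and 8.31 in TTF clones, against 6.24, 6.40 and 5.96 in Gra clones. It was 1.99 without TTF clone 2, and was not called without TTF clone 3 (0.90, adjusted p = 0.063) or with only the 6 arrays (adjusted p = 0.11). Xist, the RNA of X inactivation, overlapped between the groups (-0.20, SE 0.29, adjusted p = 0.66).

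DNA methylation genes held 2 called members of 9 measured, both lower in TTF lines (median -0.45), and 4 were called with the mean of probe sets. Over all genes 24.6% were called in either direction, so the count of 2 is near the background, and 9.03% were called lower. Dnmt3l, the cofactor of the new-methylation enzymes, was 9.81, 8.53 and 8.57 in TTF clones, against 11.04, 11.16 and 11.08 in Gra clones (-2.13, SE 0.25, adjusted p = 1e-06, 4.37-fold). Every TTF clone was more than 1 log2 unit below every Gra clone. Uhrf1, which guides maintenance methylation, differed by -0.57 (SE 0.12, adjusted p = 0.0012), or -1.16 with the mean of probe sets. Dnmt1 (-0.04, adjusted p = 0.88), Dnmt3a (-0.61, adjusted p = 0.22) and Dnmt3b (-0.60, adjusted p = 0.2) were not called.

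**Figure D2:**
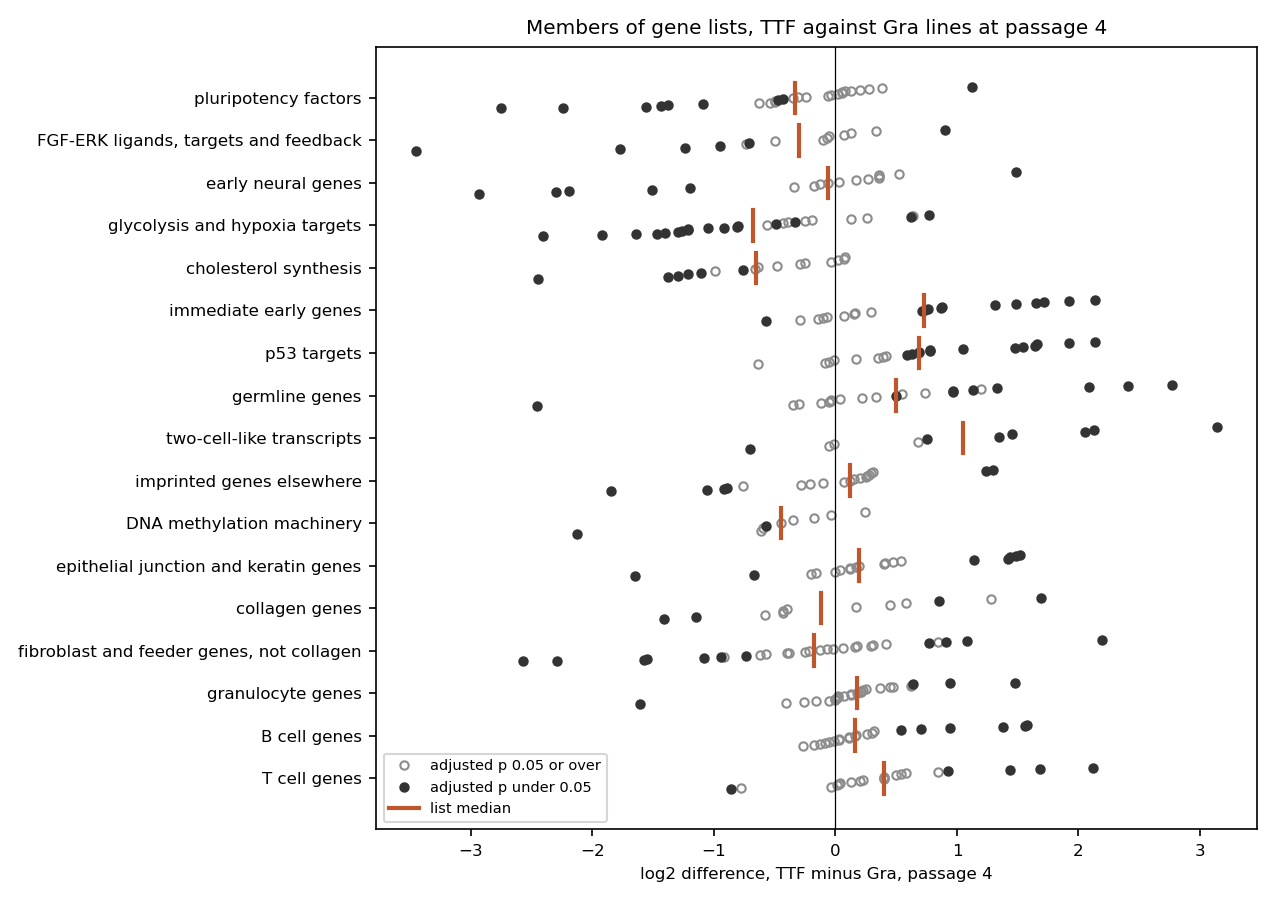
Log2 difference, TTF minus Gra at passage 4 (horizontal axis), of every measured member of 17 gene lists (rows); filled marks are called at an adjusted p under 0.05, open marks are not, and the orange bar is the list median. The list median is -0.68 for glycolysis and hypoxia targets, 0.73 for immediate early genes, 0.69 for p53 targets and 0.18 for granulocyte genes.

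The arrays come from bulk cultures, in which fewer cells of a type and less RNA per cell cannot be told apart, and the tables hold no detection calls. Of 28 fibroblast genes other than collagens, 4 were called higher in TTF lines and 7 lower (median -0.18), against 15.6% and 9.03% of all genes, so the higher count is near the background. The list's mean on an array was 7.14 to 7.32 in TTF clones, against 7.44 to 7.50 in Gra clones. Lox, the enzyme that crosslinks collagen, was 6.06, 5.44 and 6.48 in TTF clones, against 8.97, 8.72 and 7.99 in Gra clones (-2.57, SE 0.44, adjusted p = 0.00011), or -1.52 with the mean of probe sets, still called. Timp3, an inhibitor of matrix proteases, differed by -2.29 (SE 0.32, adjusted p = 7.3e-06), and Postn, a matrix protein, by -1.58 (SE 0.29, adjusted p = 0.00018). Mmp2, a matrix protease, went the other way: 7.599, 6.997 and 7.258 in TTF clones, against 5.10, 4.78 and 5.41 in Gra clones (2.19, SE 0.29, adjusted p = 3.4e-06). Thy1, a surface marker of fibroblasts that T cells also carry, was 5.26, 7.31 and 6.30 in TTF clones, against 5.50, 5.43 and 5.42 in Gra clones. It overlapped and was not called (0.84, SE 0.33, adjusted p = 0.059), but was without TTF clone 1 (1.36, adjusted p = 0.0013) and without Gra clone 3 of passage 16 (adjusted p = 0.046).

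Of 12 collagen genes, 2 were called higher and 2 lower (median -0.12), against 15.6% and 9.03% of all genes, and without TTF clone 2, 1 was called in each direction. Counts this small are near the background. Col1a1, the main fibrillar chain, was 8.28, 8.31 and 8.35 in TTF clones, against 8.65, 8.59 and 8.99 in Gra clones (-0.43, SE 0.27, adjusted p = 0.28). Col6a3, a microfibril chain, was lower (-1.41, SE 0.28, adjusted p = 0.00061). Col18a1, a basement membrane chain, was higher (0.85, SE 0.17, adjusted p = 0.00055). Col4a1, a basement membrane chain, was called higher (1.69, adjusted p = 0.011), and not without TTF clone 2 (1.50, adjusted p = 0.056). Col3a1, a fibrillar chain, was called lower (-1.15, adjusted p = 0.0055), and not without TTF clone 2 (-0.83, adjusted p = 0.063) or with the mean of its disagreeing probe sets (-0.56, adjusted p = 0.1).

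Of 27 measured granulocyte marker genes, 3 were called higher in TTF lines and 1 lower (median 0.18), against 15.6% and 9.03% of all genes. The list's mean on an array was 4.27 to 4.56 in TTF clones, against 4.17 to 4.23 in Gra clones. Without Gra clone 3 of passage 16, 6 members were called higher. Lyz2, the lysozyme of myeloid cells, was the member lower in TTF lines: 4.13, 4.11 and 3.86, against 6.26, 5.35 and 5.32 in Gra clones (-1.61, SE 0.34, adjusted p = 0.00096). It was read by 1 probe set. Its mean at passage 4 was 5.56 in B cell, 4.06 in T cell and 6.28 in mouse 1 Gra lines. At passage 16 the TTF minus Gra difference in mouse 2 was 0.63 (adjusted p = 0.27). Cebpa, a factor of granulocyte commitment, was higher in TTF lines, at 7.02, 8.31 and 7.12, against 6.01, 5.84 and 6.16 in Gra clones (1.48, SE 0.31, adjusted p = 0.0009). Hp, the haptoglobin gene, was higher too (0.94, SE 0.21, adjusted p = 0.0019), and so was Ltf, lactoferrin (0.64, SE 0.18, adjusted p = 0.01), though not without Gra clone 3 of passage 4 (0.49, adjusted p = 0.075). The defining protease genes Mpo (0.62, adjusted p = 0.16) and Elane (0.00, adjusted p = 1.0), the integrin Itgam (0.21, adjusted p = 0.63) and the leukocyte gene Ptprc (0.18, adjusted p = 0.53) were not called. Mpo was called with only the 6 arrays (adjusted p = 0.034), with the passage 4 arrays of mouse 2 (adjusted p = 0.013) and without Gra clone 3 of passage 16 (adjusted p = 0.0029).

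Genes of lymphoid cells, the labelled origin of neither group, gave 6 of 21 B cell genes and 4 of 20 T cell genes called higher in TTF lines, and 0 and 1 lower, against 15.6% of all genes higher and 9.03% lower. The T cell count is near that background. Both lists are dim: their means were 4.98 (B cell) and 4.99 (T cell) in TTF lines, against 4.62 and 4.55 in Gra lines. The first quartile of all genes on an array was 4.70 to 4.84 in TTF clones, against 4.54 to 4.60 in Gra clones. The part of this difference at the low end in the counts was not tested. Vpreb1, a surrogate light chain of the pre-B receptor, was 8.65, 7.26 and 7.07 in TTF clones, against 6.07, 6.16 and 6.01 in Gra clones (1.58, SE 0.39, adjusted p = 0.0039). H2-Eb1, an MHC class II chain, was higher by 1.38 (SE 0.29, adjusted p = 0.00084), and Spib, an ETS factor, by 0.94 (SE 0.24, adjusted p = 0.0049). Cd7, a lymphoid surface protein, was 5.41, 7.71 and 6.50 in TTF clones, against 4.43, 4.24 and 4.60 in Gra clones (2.12, SE 0.31, adjusted p = 1.7e-05). Ptcra, the pre-T alpha chain, and Lat, a T cell receptor adaptor, differed by 1.68 (SE 0.26) and 1.44 (SE 0.22). Zap70, a kinase of that receptor, was called (0.93, adjusted p = 0.0077), and not without TTF clone 1 (0.71, adjusted p = 0.06). Ebf1, a B cell factor, was called narrowly with overlapping groups (1.56, SE 0.56, adjusted p = 0.04). It was not called after quantile normalization (adjusted p = 0.052), with the mean of probe sets (0.43, adjusted p = 0.38), with only the 6 arrays (adjusted p = 0.063), or without TTF clone 1 (adjusted p = 0.073), TTF clone 2 (0.99, adjusted p = 0.28), Gra clone 1 (adjusted p = 0.13) or Gra clone 2 (adjusted p = 0.12). The T cell gene called lower, the CD3 zeta chain gene Cd247 (-0.86, adjusted p = 0.029), was not called without TTF clone 2, TTF clone 3 or Gra clone 2. The part that leftover cells, feeders or culture state play in these differences was not tested.

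Epithelial junction and keratin genes were called higher in 5 of 19 members and lower in 2 (median 0.19), against 15.6% and 9.03% of all genes. Krt18, a simple epithelial keratin, was 11.42, 10.22 and 11.06 in TTF clones, against 9.47, 9.27 and 9.38 in Gra clones (1.52, SE 0.32, adjusted p = 0.001). Krt7, also a simple keratin, and Tjp3, a tight junction scaffold, differed by 1.49 (SE 0.43, adjusted p = 0.011) and 1.44 (SE 0.33, adjusted p = 0.0018). Jup, the plakoglobin of desmosomes, went the other way: 9.06, 8.08 and 8.40 in TTF clones, against 10.08, 10.25 and 10.15 in Gra clones (-1.65, SE 0.29, adjusted p = 0.00016). The second member called lower was Cldn4, a claudin (-0.67, adjusted p = 0.037), and only 1 was called lower without TTF clone 1, TTF clone 2 or Gra clone 1. Cdh1, the E-cadherin gene, was not called (0.17, SE 0.19, adjusted p = 0.55).

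The other passage 4 lines place these differences on 1 side or the other. For each called gene, the mean of the B cell, T cell and mouse 1 Gra lines was assigned to the nearer of the TTF and Gra means of mouse 2, as a description with no test. Of the 1843 genes higher in TTF lines, both lymphoid means lay nearer the TTF mean for 540 (29.3%) and nearer the Gra mean for 458 (24.9%). For 757 (41.1%) the T cell mean lay nearer TTF and the B cell mean nearer Gra, and for 88 (4.77%) the reverse. Of the 1066 genes lower in TTF lines, the 4 counts in the same order were 326 (30.6%), 291 (27.3%), 385 (36.1%) and 64 (6.0%). The Gra lines of mouse 1 lay nearer the TTF mean for 473 of the genes higher in TTF lines (25.7%) and for 332 of those lower (31.1%), and nearer the Gra mean of mouse 2 for the other 1370 (74.3%) and 734 (68.9%).

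Named genes fell into both kinds. Lin28a averaged 7.77 in TTF lines, against 10.51 in Gra, 10.31 in B cell, 9.62 in T cell and 10.71 in mouse 1 Gra lines, so the TTF mean was the lowest of the 5. Aldoc had the same order at the low end, with 6.69 in TTF lines, against 9.10 in Gra, 9.57 in B cell, 9.02 in T cell and 9.62 in mouse 1 Gra lines. Tktl1 was the converse, with 7.27 in TTF lines, against 4.49 in Gra, 4.16 in B cell, 4.25 in T cell and 4.23 in mouse 1 Gra lines. For Pla2g7 the Gra lines of mouse 2 had the highest mean: 5.81 in TTF lines, against 8.75 in Gra lines of mouse 2, 6.43 in B cell, 6.26 in T cell and 5.92 in mouse 1 Gra lines. Bmp4 was 6.41 in TTF lines, against 8.91 in Gra lines of mouse 2, 6.93 in B cell, 6.44 in T cell and 7.19 in mouse 1 Gra lines. Serpinb9b, Ntn1, Timp3 and Jup likewise had all 3 other means nearer the TTF mean. Egr2 was lowest in Gra lines of mouse 2, at 5.92, against 8.07 in TTF, 7.75 in B cell, 9.65 in T cell and 8.71 in mouse 1 Gra lines. Whether these groups differ from each other was not tested.

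**Figure D3:**
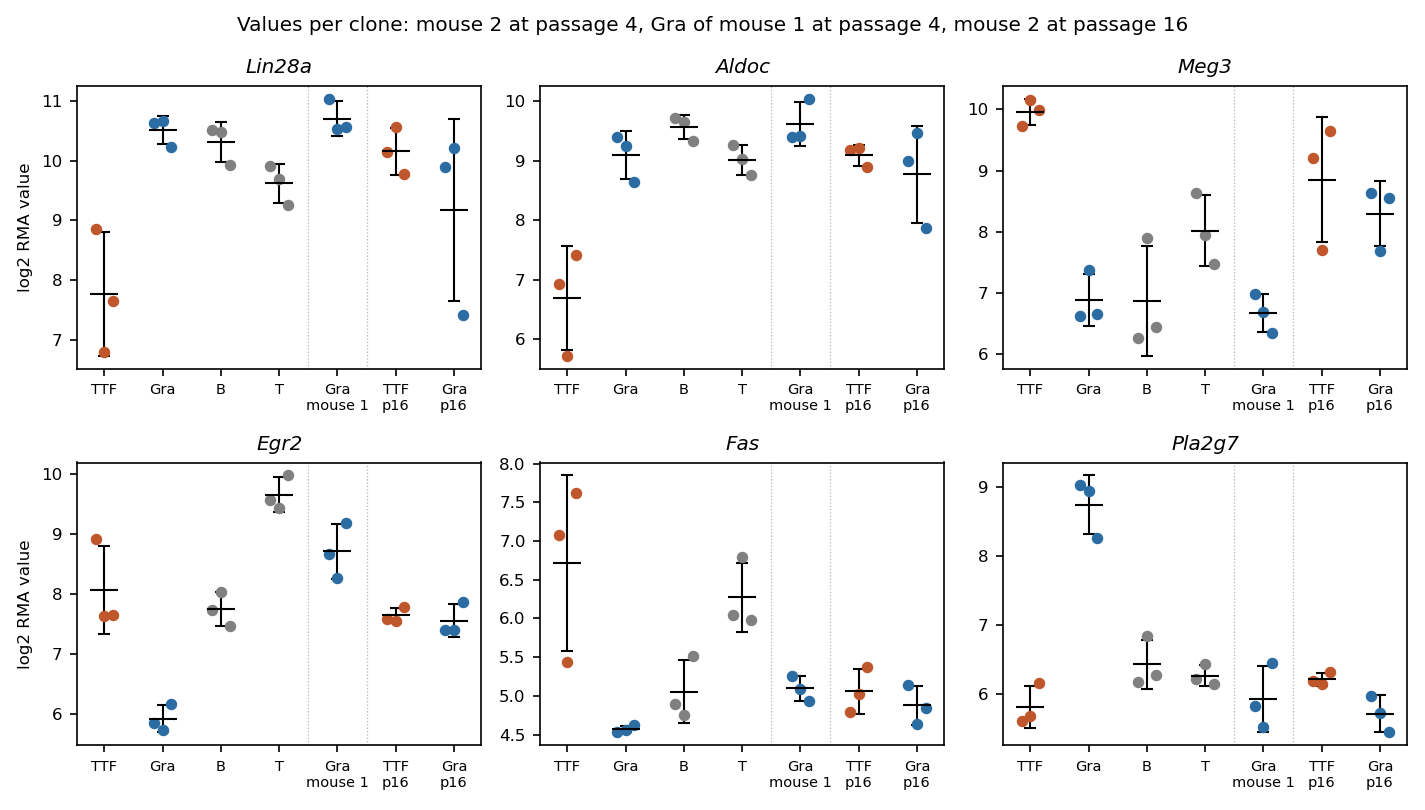
Log2 RMA values of 6 genes in each clone (points), with the mean (long bar) and SD (whiskers, n = 3), for TTF, Gra, B cell and T cell lines of mouse 2 at passage 4, Gra lines of mouse 1 at passage 4, and TTF and Gra lines of mouse 2 at passage 16. Lin28a and Aldoc are low in passage 4 TTF lines, Meg3 and Fas are highest there, Egr2 is low and Pla2g7 high in the passage 4 Gra lines of mouse 2, and at passage 16 the TTF and Gra clones overlap for Lin28a, Aldoc, Meg3, Egr2 and Fas.

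At passage 16 the same origins of the same mouse gave 0 called genes of 11807 (0.0%) in the same limma model, and 2518 (21.3%) at an unadjusted p under 0.05. The Gra lines of passage 16 were spread, and clone 3 had a mean r of 0.922 with its group, against 0.960 and 0.956 for clones 1 and 2. Leaving out clone 3 still gave 0 called genes, while 15 were called without clone 1 and 2765 without clone 2 (1135 higher and 1630 lower). The change of the difference, passage 16 minus passage 4, was called for 2765 genes (23.4%), 1109 higher (9.39%) and 1656 lower (14.0%), and 4618 (39.1%) had an unadjusted p under 0.05. The count was 1797 without TTF clone 2 of passage 16 and 4674 without Gra clone 2 of passage 16. With only the 4 groups compared, 734 genes were called, 219 higher and 515 lower, so that the higher share was 29.8% in place of 40.1%. The change shares its passage 4 arrays with the comparison above, so its sign is not independent of the genes chosen there. Lin28a differed by 0.99 at passage 16 (TTF minus Gra, adjusted p = 0.23), beside -2.75 at passage 4. Its Gra clone 3 of passage 16 was at 7.42, against 9.89 and 10.21 for clones 1 and 2. Aldoc differed by 0.32 beside -2.41, Dnmt3l by -0.05 beside -2.13, and Egr2 by 0.09 beside 2.14. Matn1 differed by -1.09 beside 3.18, with an SD of 1.64 among the Gra clones of passage 16. No passage 16 difference was called, so an opposite sign there is no evidence of a reversal.

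Passage 10 was measured on another array platform and normalised separately, so no contrast was fitted across the tables and the platform differs along with passage. There, 4513 of 12394 genes were called (36.4%), 1937 higher in TTF lines (15.6%) and 2576 lower (20.8%). Of the 11485 genes in both tables, 1802 were higher in TTF lines at passage 4. Of these, 138 were called higher at passage 10 (7.66% of them, and 7.77% of the genes higher at passage 10), against 15.5% of all, and 793 were called lower (44.0%), against 20.9% of all. Of the 1038 genes lower in TTF lines at passage 4, 124 were called lower at passage 10 (11.9% of them, and 5.18% of the genes lower at passage 10), against 20.9%, and 348 were called higher (33.5%), against 15.5%. The difference between these shares was not tested.

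The list counts at passage 10 are to be read against 15.6% of all genes called higher there and 20.8% lower. By list, 27 of 27 glycolysis and hypoxia targets were called lower in TTF lines at passage 10 (median -0.91), beside 15 of 26 at passage 4. Hk1, called higher at passage 4, differed by -1.24 at passage 10 (adjusted p = 0.00054). Aldoc differed by -2.02 there (adjusted p = 0.0001), Egln3 by -1.81 (adjusted p = 0.00035) and Hk2 by -0.30 (adjusted p = 0.0048). Of 18 cholesterol genes, 10 were called lower and 1 higher (median -0.25), led by Fdps among the named members (-0.50, adjusted p = 0.0009). Of 21 immediate early genes, 13 were called lower and 1 higher (median -0.55), beside 11 of 20 called higher at passage 4, and Jun differed by -1.21 (adjusted p = 0.00068). Of 21 p53 targets, 18 were called lower and 0 higher (median -0.53), beside 12 of 21 called higher at passage 4. Fibroblast genes other than collagens were called higher in 25 of 32 members and lower in 1 (median 0.91), collagens in 10 of 14 and 0 (median 0.94). Timp3 was higher in TTF lines by 2.24 (adjusted p = 5.1e-05), Lox by 1.59 (adjusted p = 9.9e-05), Col3a1 by 1.75 (adjusted p = 5.1e-05) and Col1a1 by 1.39 (adjusted p = 7.3e-05). Epithelial junction and keratin genes were called lower in 14 of 19 and higher in 0 (median -0.57), with Krt7 at -1.61 (adjusted p = 7.8e-05). The part of feeder cells in these passage 10 values was not tested.

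**Figure D4:**
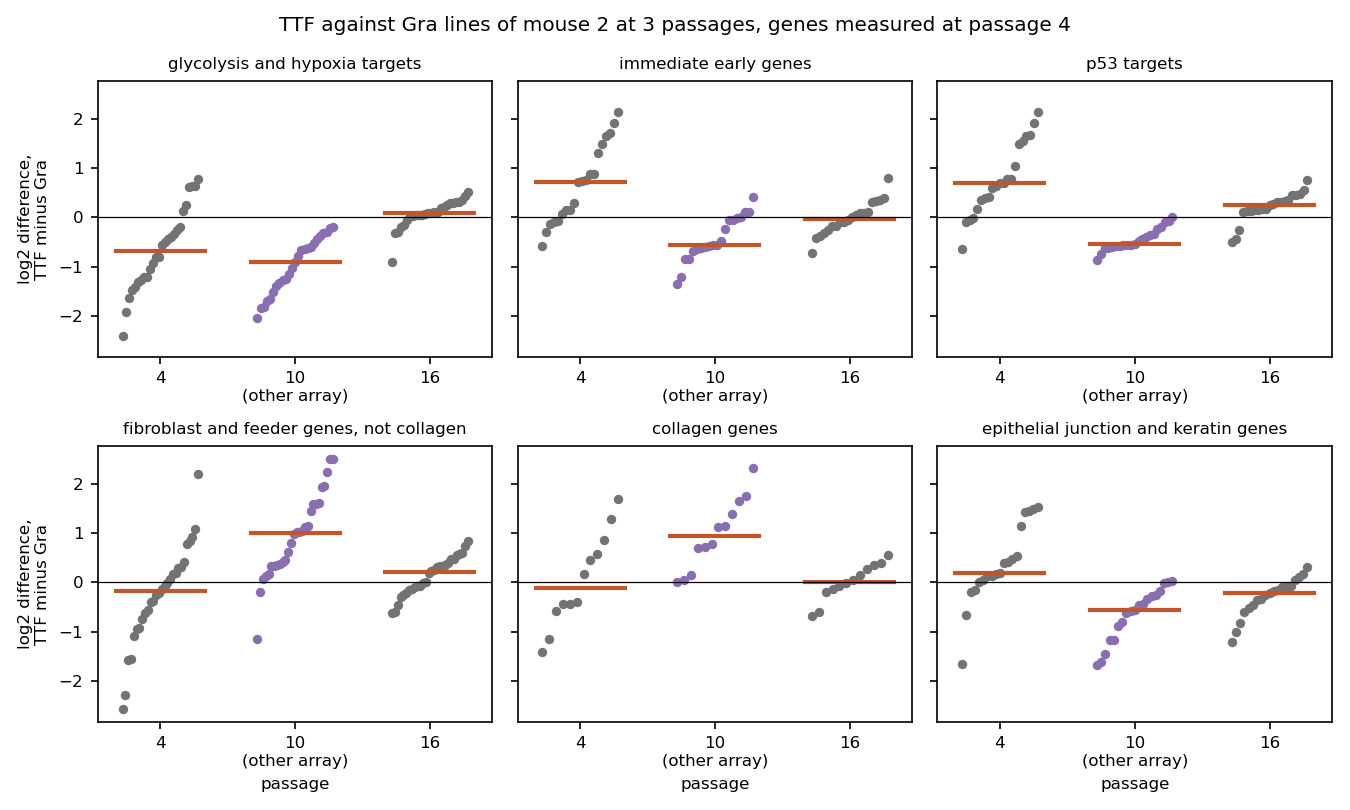
Log2 difference, TTF minus Gra lines of mouse 2 (vertical axis), at passages 4, 10 and 16 for 6 gene lists; each point is 1 gene measured at passage 4, sorted by value, and the orange bar is the median of the plotted genes. Passage 10 (purple) comes from another array platform. The glycolysis median is below 0 at passages 4 and 10. The medians of immediate early genes and p53 targets are above 0 at passage 4 (0.73 and 0.69) and below it at passage 10. Several members of both lists lie below 0 at passage 4, and some immediate early genes, such as Fosl1 (0.41), lie above it at passage 10. The medians at passage 16 are between -0.21 and 0.26.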

How the data were processed

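The authors deposited log2 values made with RMA, per the submitters' processing notes, in 2 tables; the version and the genome build are not given in the sources used here. Per the labels, biotin-labelled cRNA was hybridised. The table of passages 4, 6 and 16 holds 33 arrays in 11 groups, with deposited log2 values from 2.261 to 14.081, and the table of passage 10 holds 12 arrays, with values from 2.734 to 15.306. In the first, 18003 of 22690 probe sets had 1 symbol in the platform annotation, 287 several and 4400 none. In the other, 20393 had 1, 691 several and 1606 none. A gene with several such probe sets was represented by the brightest, which gave 11807 and 12394 genes, and dim genes were kept.

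Each table was fitted with limma 3.58.1 (lmFit, eBayes) in R 4.3.3 on all of its arrays, group means as coefficients, and p-values were adjusted by Benjamini-Hochberg over all genes. Summaries, motif searches and figures used Python 3.11.15, numpy 2.4.6, pandas 2.3.3 and matplotlib 3.10.9, and the model was tested on simulated data. The number of arrays limits the precision. Same-numbered TTF and Gra clones had deviations correlated at -0.055, -0.047 and -0.276, so the numbers were taken as names only.

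The comparison and the gene lists were chosen with earlier results of these data known. Named genes were the 12 called genes with the largest difference in each direction and no overlap, up to 4 called members of each described list, and a fixed set of pluripotency, imprinting and cell type genes. Klf5, Phlda1, Neurod1, Hk1, Ddit4, Nr4a1, Eif1a, Cd247, Cldn4, Fgf4, Cdh1, Zfp42, Dppa5a, Snrpn, Dnmt1, Dnmt3a and Dnmt3b were chosen after their values were seen. Of 95 named genes, 37 had several probe sets, all in 1 direction for 29. Sequences are RefSeq promoters matched by symbol. Alternatives were other normalizations, the mean of probe sets, a filter on genes in the lowest 25% of mean value, fewer arrays in the fit, the clone number as a block, an intensity trend and leaving out each clone. B cell, T cell and SMP (skeletal muscle precursor) lines enter the spread of the model, and their own comparisons are not analysed here.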

Additional observations from a re-analysis of the deposited data

Results flagged for a closer look

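Each value here is the change of the TTF minus Gra difference, passage 16 minus passage 4 (log2), for a named gene whose change had a limma adjusted p under 0.05, so the same contrast differed between passages. Over all genes 2765 changes were called. The passage 4 arrays that chose the genes enter the change, so its sign is not independent of that choice. Gra clone 3 of passage 16 (mean r of 0.922 with its group) enters every change, and values per gene without it are not given here.

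Of the genes with the largest passage 4 excess in TTF lines, Matn1 by -4.26, Bcl6 by -3.55, Inca1 by -3.41, Irf2 by -2.88 and Ablim1 by -2.83 changed most. Tmem191c by -2.61, Meg3 by -2.51, Cacng6 by -2.46, Tktl1 by -2.37, Uba1y by -2.09 and Usp17la by -1.99 followed. Of those lower in TTF lines at passage 4, Snurf by 4.56, Etv1 by 4.30, Trh by 4.15, Lin28a by 3.73 and Pla2g7 by 3.44 led. Lox by 3.40, Slc6a6 by 3.30, Pax6 by 3.15, Bmp4 by 2.91, Serpinb9b by 2.69 and Rhox5 by 2.43 came next.

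Among pluripotency and signalling genes, the difference changed for Gbx2 by 2.33, Gdf3 by 1.81, Nr0b1 by 1.88, Sox2 by 0.69 and Myc by 1.72. FGF-ERK members were Fgfr2 by 2.94, Ccnd1 by 1.85 and Spry2 by 0.96. Immediate early genes and p53 targets were Egr2 by -2.05, Atf3 by -2.03, Jun by -1.71, Btg2 by -1.61, Fas by -1.96, Polk by -1.54 and Phlda3 by -1.16.

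Metabolic members were Aldoc by 2.73, Hk2 by 2.27, Egln3 by 1.34 and Ndrg1 by 1.28 for glycolysis and hypoxia, and Fdps by 3.38, Sc5d by 1.98, Cyp51 by 1.79 and Idi1 by 1.44 for cholesterol synthesis. Imprinted, germline and 2-cell-like members were Sgce by -1.39, Slc22a18 by -2.37 and Impact by 1.39, then Mov10l1 by -3.14, Tex101 by -2.34 and Spz1 by -1.84. DNA methylation members were Dnmt3l by 2.08 and Uhrf1 by 0.72. Matrix genes were Col4a1 by -2.38, Col6a3 by 1.39, Col3a1 by 1.19, Timp3 by 3.03, Mmp2 by -1.85 and Postn by 1.49.

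Blood cell genes were Lyz2 by 2.24, Cebpa by -1.69, Hp by -1.19, Mpo by -1.47, H2-Eb1 by -1.75 and Spib by -1.18, and Cd7 by -2.13, Ptcra by -2.34 and Lat by -1.53. Neural genes were Ncam1 by 2.05, Zic2 by 2.78 and Tubb3 by 2.18, and epithelial genes were Jup by 1.96, Krt18 by -1.73, Krt7 by -2.10 and Tjp3 by -2.44.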

How the results depend on the processing

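At passage 4 the count of 2909 called genes was between 1995 and 2673 leaving out a clone and between 2636 and 3991 under the other settings, and the share higher in TTF lines stayed between 56.3% and 69.2%. Without Gra clone 3 of passage 16, which had a mean r of 0.922 with its group and enters the shared estimate of spread, 3991 were called. At passage 10 leaving out a clone gave 3492 to 4252. At passage 16 the count of 0 became 1 with cyclic loess and 1 with the clone number as a block, and 0 to 2765 leaving out a clone (15 without Gra clone 1). The count of changed differences (2765) was 734 with only the groups compared, 1829 with only the mouse 2 arrays, and 1797 to 4674 leaving out a clone. With the block on the clone number the counts were 3039 at passage 4, 4434 at passage 10 and 3040 for the change; the numbers do not pair the lines. Of 1416 recomputed differences of named genes, 1378 kept direction and side of the threshold, 26 lost it, 6 gained it and 6 changed sign, none of the last called. These were Nanog (-0.03, -0.02 and -0.07 without TTF clone 2, TTF clone 3 and Gra clone 3), Klf4 (-0.01 without TTF clone 2) and Elane (0.10 and 0.19 without TTF clone 1 and Gra clone 1). The cause of these moves was not tested. The number of arrays limits the precision.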

Other observations

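Further gene lists were counted at passage 4 and are given as values, to be read against the 15.6% of all genes called higher in TTF lines and the 9.03% called lower. The LIF-STAT3 pathway had 5 of 14 members called lower in TTF lines and 1 higher (median difference -0.38). Histone demethylases had 4 of 10 lower and 0 higher (median -0.39), and Polycomb genes had 4 of 19 lower and 1 higher (median -0.30). Genes of DNA replication and mitosis had 5 of 25 lower and 0 higher (median -0.18). The amino acid and integrated stress response list had 6 of 20 higher and 3 lower (median 0.29). Trophoblast genes had 3 of 13 higher and 2 lower, and endoderm genes had 2 of 24 higher and 1 lower. Ribosomal protein genes had 1 of 20 lower and 0 higher (median -0.04), respiratory chain genes 3 of 23 higher and 2 lower (median 0.00, near the shares over all genes), and macrophage genes 0 of 11 in either direction.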
